A study of Mus musculus with 6 samples.

Results

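The change from 6 to 24 hr of TNFα treatment was described across all protein-coding genes of primary mouse embryonic fibroblasts (MEFs). Members were the 20275 coding symbols of the deposited table, each taken from its RefSeq NM_ transcript with the highest mean over the 8 columns of the 4 RNA libraries. Ratios were read for the 6571 symbols whose average was above 1 RPKM (reads divided by exon length in kilobases and by the size of the library), and 13704 symbols lay at or under it. Of the 6571 symbols, 148 were under 1 RPKM at both 6 and 24 hr. Of the 6 libraries of the series, 2 were compared: MEFs with 6 hr and MEFs with 24 hr of TNFα at 20 ng/mL. Untreated MEFs (0 hr) and MEFs with 1.5 hr of TNFα, 1 RNA library each, gave levels beside them, and 1 library of untreated MEFs gave peaks of H3K4me3, a histone mark of active promoters, called against an input library. All cells were wild-type MEFs of strain C57BL/6x 129 at passage 4, from 13.5-day embryos, and the labels name no allele or transgene in any group. The labels give the 24 hr library the extraction protocol of chromatin immunoprecipitation in one field, although every other field of it describes RNA. With 1 library per time there is no replicate, so no difference was tested and no p-value is given.

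TNFα is a cytokine that binds receptors of the TNF family on most cells, including fibroblasts. Its signal frees the transcription factor NF-κB from IκB proteins, and NF-κB then drives genes for chemokines, cytokines, adhesion molecules and its own inhibitors. The resynthesised inhibitors switch NF-κB off again, so the response of such genes is known to come in waves. A slower group of genes, among them acute phase proteins, matrix metalloproteinases and interferon-stimulated genes, is known to build up over hours of exposure.

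In deposited units most coding genes had higher values at 24 hr than at 6 hr: the median log2 ratio over the 6571 genes was 0.97, or 1.96-fold. The 6 hr library had the lowest values of the 4, with a summed RPKM over coding symbols of 42728, against 78765 at 0 hr, 94514 at 1.5 hr and 76316 at 24 hr. All further ratios are centred, which means that this median was subtracted, and a centred log2 ratio of 0 is the change of the median gene. Levels in RPKM are not centred. In them the median gene was 1.67-fold higher at 0 hr and 2.51-fold higher at 1.5 hr than at 6 hr. A gene was said to have risen or fallen when its centred ratio was at least 2-fold. By that rule 127 genes rose, which is 1.93% of the genes read, and 991 fell, which is 15.1%. The second rise in the deposited values was thus shared by most of the coding genes read, and after centring the genes past 2-fold were mostly lower. What lies behind the lower coding values of the 6 hr library was not tested. The split depends on the scaling: without centring 3151 genes passed 2-fold upwards and 232 downwards, and with scaling to the summed coding values 252 upwards and 854 downwards. Just inside the rule for genes that rose was Gnas at 1.004, and just outside it was Pdcd2 at 0.998, while Lime1 at -1.0002 was just inside and Rogdi at -0.998 just outside the rule for genes that fell. Whether less RNA of a gene per cell or fewer cells that make it lies behind a lower value cannot be told apart in bulk RNA.

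The 24 hr library resembled the 1.5 hr library more than it resembled the 6 hr library. Spearman's rho of the levels of the 6571 genes was 0.958 for 24 against 1.5 hr, 0.829 for 24 against 6 hr and 0.895 for 6 against 0 hr, as a description of libraries that share the annotation and base composition of their genes. The ratio of 24 to 6 hr also went with the base composition and length of the transcript. Among the 645 genes of highest GC content, from 59.1 to 71.7% GC, the median centred log2 ratio was -0.81, 265 genes fell and 2 rose. Among the 645 genes of lowest GC content it was 0.17, with 48 genes that fell and 10 that rose. The longest 645 transcripts held 143 genes that fell and none that rose, whereas the shortest 646 held 62 that fell and 31 that rose. A least-squares fit of the ratio on GC content and length, chosen after seeing the data, left 163 genes that passed 2-fold upwards (2.53%) and 652 downwards (10.1%), of which 44 and 589 were also called by centring alone. Centring within bins of GC content alone left 237 upwards (3.68%) and 703 downwards (10.9%). The part of base composition and length in any single ratio was not tested. The value after this fit is given below as the fitted ratio for some genes only. Of 84 named genes past 2-fold that the fit could read, 61 stayed past 2-fold after it. Among those that did not were Icam1 (fitted ratio -0.82), Pold1 (-0.62), Mad2l1 (0.69) and Psmb2 (0.77). A call printed without a fitted ratio may thus not hold after the fit.

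**Figure D1:**
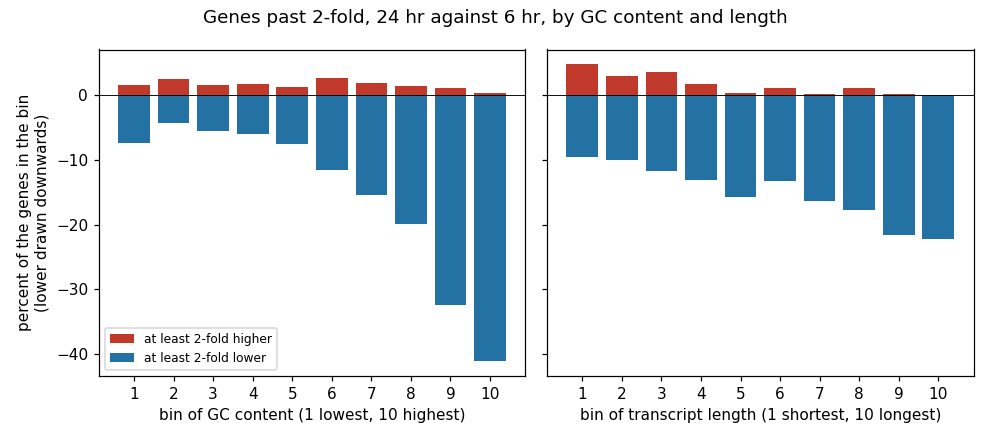
Percent of genes at least 2-fold higher (red, upwards) or lower (blue, downwards) at 24 hr than at 6 hr, after centring, in 10 bins of GC content (left) and of transcript length (right). Between 28 and 48 genes fell in each of the 5 bins of lower GC content, and the number grows over the upper bins to 265 of 645 in the highest, while no gene of the longest bin rose.

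The markers of fibroblasts were the most abundant of the marker lists. Of 11 fibroblast markers 10 passed the filter, and their summed RPKM was 1122, 1166, 528 and 712 at 0, 1.5, 6 and 24 hr. The MEF libraries also held RNA of leukocyte genes: 7 of 12 markers passed the filter, their summed RPKM was 94.6, 255, 52.2 and 125 in the same order, and 2 of the 12 were at 0 at 6 hr and 2 at 24 hr. The largest leukocyte value was that of Lyz2, the lysozyme of macrophages and neutrophils, at 31.5 RPKM at 6 hr and 84.0 RPKM at 24 hr. The summed RPKM of the markers of endothelium, epithelium, muscle, adipocytes, cartilage and erythroid cells lay between 0.108 and 4.18 in every library, and that of neural and glial markers was 15.5, 10.8, 13.1 and 7.32 at 0, 1.5, 6 and 24 hr.

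Saa3, Mmp3, Mmp10 and Ccl8, which encode secreted proteins, were among the 127 genes that rose and are described first because they were highest at 24 hr. They were picked after their values were seen and come from lists in which 1 of 8 acute phase and complement genes rose, 2 of 37 matrix proteases and inhibitors (4 fell) and 1 of 19 chemokines and cytokines (4 fell), against 1.93% of all genes. Saa3, an acute phase serum amyloid protein made by fibroblasts and macrophages, was at 0.0411 RPKM at 0 hr, 0.736 at 1.5 hr, 1.61 at 6 hr and 9.04 at 24 hr. Its centred log2 ratio of 24 to 6 hr was 1.52, and the value at 24 hr was the highest of the 4 libraries. Mmp3 (stromelysin-1), a metalloproteinase that degrades matrix, was at 2.59, 7.47, 7.24 and 31.0 RPKM at the 4 times in order, a centred log2 ratio of 1.13. Mmp10 (stromelysin-2), its neighbour in the metalloproteinase cluster, was at 0.345, 4.56, 2.29 and 10.5 RPKM, a ratio of 1.23. Ccl8, a chemokine that attracts monocytes, was at 0.624, 2.21, 1.52 and 6.77 RPKM, a ratio of 1.19. For all 4 genes the 24 hr library was the highest and the untreated library the lowest.

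The same 4 genes were also higher at 24 hr than at 1.5 hr, in a comparison that shares the 24 hr library. Centred on the median ratio of 24 to 1.5 hr, the log2 ratio was 3.95 for Saa3, 2.38 for Mmp3, 1.54 for Mmp10 and 1.95 for Ccl8. The fitted ratio of 24 to 6 hr was 0.98 for Saa3, 0.73 for Mmp3, 0.82 for Mmp10 and 0.49 for Ccl8, each of the same sign and each under the 2-fold rule. Mcpt8, a granule protease known from basophils, was highest at 24 hr as well, at 1.09, 1.75, 0.944 and 4.80 RPKM, with a centred log2 ratio of 1.38 and a fitted ratio of 0.83. Its source among the cells of the culture was not tested.

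**Figure D2:**
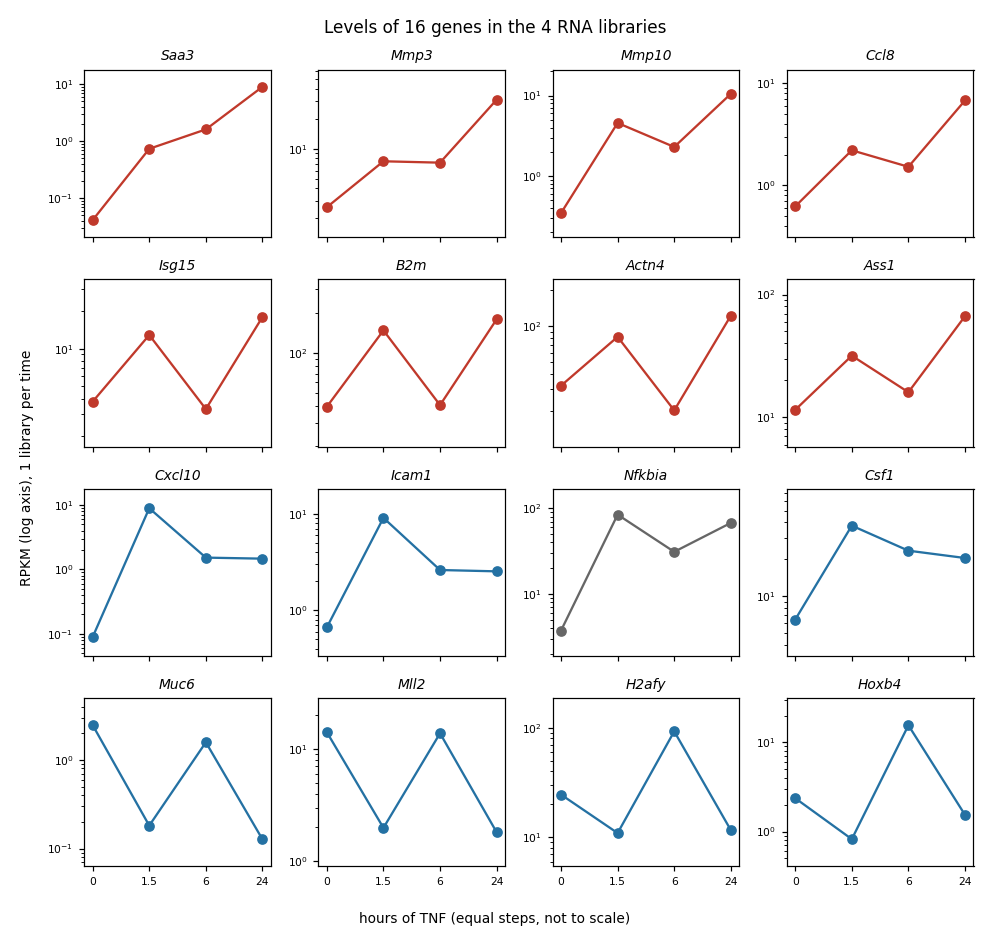
RPKM (log axis, a scale of its own in each panel) of 16 genes in the 4 RNA libraries, 1 library per time. Red genes were at least 2-fold higher at 24 hr than at 6 hr after centring, blue genes at least 2-fold lower, and grey Nfkbia was neither. Saa3, Mmp3, Mmp10 and Ccl8 were highest at 24 hr, Cxcl10 and Icam1 peaked at 1.5 hr and were level from 6 to 24 hr in deposited units, and H2afy and Hoxb4 were high in the 6 hr library.

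Isg15, a ubiquitin-like protein that interferon induces, was at 3.78 RPKM at 0 hr, 12.8 at 1.5 hr, 3.30 at 6 hr and 17.9 at 24 hr. Its centred log2 ratio was 1.47 (1.42 in the R1 columns and 1.51 in the R2 columns of the libraries) and its fitted ratio 1.09. B2m, the constant light chain of MHC class I, was at 39.4, 148, 40.5 and 179 RPKM in the same order, a centred log2 ratio of 1.17 and a fitted ratio of 0.59. Both genes were low at 0 and 6 hr and high at 1.5 and 24 hr.

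The promoters of 5 genes that rose are printed because they belong to different groups of the response and hold different short motifs. Each is the 250 bases before the start of transcription in RefSeq, on build GRCm38.p6, which is not the build mm9 of the expression table. Capitals mark matches, on either strand, to any of 3 motifs: the core of an interferon-stimulated response element (ISRE; GAAA and GAAA parted by 2 bases), an AP-1 motif (TGANTCA) and a κB motif (GGGA and TTCC parted by 2 bases). Isg15 lies at chr4:156200819-156201068 on the minus strand and holds 3 overlapping matches to the ISRE core. B2m lies at chr2:122147437-122147686 on the plus strand and holds 1 match to the ISRE core followed by 1 to the κB motif. Saa3 lies at chr7:46715677-46715926 on the minus strand and holds 1 match to the ISRE core. Mmp10 lies at chr9:7502092-7502341 on the plus strand and Actn4, described further on, at chr7:28962333-28962582 on the minus strand, and each holds 1 match to the AP-1 motif.
Isg15: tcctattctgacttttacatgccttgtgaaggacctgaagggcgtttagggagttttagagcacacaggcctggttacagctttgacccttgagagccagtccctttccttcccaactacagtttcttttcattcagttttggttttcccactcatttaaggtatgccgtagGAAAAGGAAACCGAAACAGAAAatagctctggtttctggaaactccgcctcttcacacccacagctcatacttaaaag
B2m: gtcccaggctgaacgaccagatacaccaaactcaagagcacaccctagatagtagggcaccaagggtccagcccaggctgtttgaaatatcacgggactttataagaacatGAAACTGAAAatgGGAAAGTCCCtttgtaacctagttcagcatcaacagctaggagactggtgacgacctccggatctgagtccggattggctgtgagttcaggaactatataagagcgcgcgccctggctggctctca
Saa3: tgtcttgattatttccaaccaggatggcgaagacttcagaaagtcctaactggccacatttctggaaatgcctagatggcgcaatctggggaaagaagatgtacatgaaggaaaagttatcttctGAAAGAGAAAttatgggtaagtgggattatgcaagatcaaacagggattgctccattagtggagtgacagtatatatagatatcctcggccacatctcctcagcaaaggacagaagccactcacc
Mmp10: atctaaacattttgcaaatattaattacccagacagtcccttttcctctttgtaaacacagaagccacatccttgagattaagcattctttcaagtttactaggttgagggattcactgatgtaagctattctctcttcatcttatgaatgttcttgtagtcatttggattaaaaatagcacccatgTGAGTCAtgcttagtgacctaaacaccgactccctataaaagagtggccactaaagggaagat
Actn4: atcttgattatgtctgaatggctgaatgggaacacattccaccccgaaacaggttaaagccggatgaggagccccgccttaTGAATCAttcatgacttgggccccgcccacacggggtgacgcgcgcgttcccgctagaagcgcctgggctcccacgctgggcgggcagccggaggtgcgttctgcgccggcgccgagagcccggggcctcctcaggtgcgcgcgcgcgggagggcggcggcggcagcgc

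These motifs are short and common, so the share in all windows of the same length is given beside each count. The ISRE core was found in 7 of the 76 genes that rose and had a RefSeq window (9.21%), in 14 of 719 that fell (1.95%), in 3.05% of the 4753 genes past the filter with a window and in 2.98% of all 32851 windows. The AP-1 motif was found in 9 of the 76 that rose (11.8%), in 5.01% of those that fell, in 5.41% of the genes past the filter and in 6.75% of all windows. The κB motif was found in 1.32% of the genes that rose and 1.39% of those that fell, against 1.51% of the genes past the filter and 1.21% of all windows. A match is a stretch of letters and not a measured site, and these shares were not tested.

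The interferon-stimulated genes as a list changed little relative to the median gene. Of 31 past the filter 1 rose (3.23%, against 1.93% of all genes) and 4 fell (12.9%, against 15.1%). The median centred log2 ratio was 0.25, against 0 over all genes read, and the fitted median was 0.10. Bst2 (tetherin), a membrane protein that holds back budding virus, was at 14.3, 23.4, 7.92 and 26.1 RPKM with a ratio of 0.75, and Isg20, an exonuclease, had a ratio of 0.76. Irf1, the interferon regulatory factor that NF-κB induces early, fell with a ratio of -1.29, at 1.33, 15.1, 4.57 and 3.66 RPKM. Ifi35 fell with a ratio of -1.64. Ifit1, which binds foreign RNA, stood at 26.7 RPKM at 6 hr and 6.95 at 24 hr, a ratio of -2.91, but the 2 columns of the 6 hr library gave 7.75 and 45.6 RPKM. Its ratio was -1.12 from one pair of columns and -3.69 from the other, so the 2 columns differ in its size. Bst2 and Irf1 were chosen after their values were seen, as were Cxcl10, Csf1, Ccl2, Ccl5, Nfkb2, Tnfaip3, Col1a1, Eln, Tagln and the leukocyte genes named further on. The same holds for H2-K1 and H2-D1.

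Among 22 genes of MHC class I presentation past the filter B2m alone rose (4.55%, against 1.93% of all genes) and 4 fell (18.2%, against 15.1%). The median was -0.13, which turned to 0.84 without centring and to 0.0050 with scaling to the summed coding values. Of the heavy chain genes H2-Q8 fell with a ratio of -1.30, at 0.549, 1.65, 1.49 and 1.19 RPKM, and none rose. H2-K1 was at 3.99, 22.1, 8.40 and 21.3 RPKM, a ratio of 0.37, and H2-D1 at 5.38, 17.0, 5.93 and 13.8 RPKM, a ratio of 0.25. Heavy chain genes are near-identical in sequence and their reads may be shared. Tap2, a subunit of the transporter that carries peptides to class I, fell with a ratio of -1.44, at 1.65, 2.32, 1.86 and 1.34 RPKM.

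Chemokines and cytokines had a median below that of all genes. Of 19 past the filter 1 rose and 4 fell (21.1%, against 15.1% of all genes), and the median centred log2 ratio was -0.39, which was 0.58 without centring and -0.57 after the fit. The median was 0.06 with a filter at an average RPKM of 5 and -0.10 with a pseudocount of 1 RPKM. Cxcl10, a chemokine for T cells, was at 0.0893 RPKM at 0 hr, 8.90 at 1.5 hr, 1.52 at 6 hr and 1.47 at 24 hr, a centred ratio of -1.02. Cxcl2, a chemokine for neutrophils, was at 0.0524, 2.21, 1.43 and 1.16 RPKM, a ratio of -1.27. Csf1, the growth factor of macrophages, was at 6.42, 37.6, 23.5 and 20.5 RPKM, a ratio of -1.17. In deposited units these 3 genes were close to level or lower from 6 to 24 hr while the median gene was 1.96-fold higher, and all 3 stayed above the untreated level.

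Other chemokines did not pass 2-fold in either direction. Ccl2, which attracts monocytes, was at 2.18, 212, 58.0 and 158 RPKM, a centred ratio of 0.47 and a fitted ratio of -0.16. Ccl5 was at 0.555, 18.6, 26.4 and 36.6 RPKM, a ratio of -0.50. In deposited units it was the one chemokine of those named here with a higher value at 6 than at 1.5 hr. The median gene was 2.51-fold higher at 1.5 than at 6 hr, and relative to it Ccl8 and Cxcl2 were also higher at 6 hr. Cxcl14 had a ratio of 0.97 and lay just under 2-fold. Clcf1, a cytokine of the IL-6 family, fell with a ratio of -1.18. Il6, a cytokine named by the study as a target of NF-κB, did not pass the filter and was at 0.00667, 0.186, 0.115 and 0.222 RPKM.

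With centring on the median gene alone, components and inhibitors of the NF-κB pathway had the lowest median of the 24 gene lists, whereas after the fit chemokines and cytokines had the lowest. Of 29 past the filter none rose and 7 fell (24.1%, against 15.1% of all genes), 3 of the list passed 2-fold downwards after the fit, and the list had a median centred log2 ratio of -0.51, which was 0.45 without centring and -0.12 after the fit. Nfkbia, the IκBα that shuts NF-κB off, was at 3.73, 84.2, 31.0 and 67.4 RPKM, a centred ratio of 0.15. Tnfaip3 (A20), a second inhibitor, was at 0.0833, 4.67, 0.827 and 1.74 RPKM, a ratio of 0.10. In deposited units both thus peaked at 1.5 hr, dipped at 6 hr and were higher at 24 hr, the last by about as much as the median gene. From 1.5 to 6 hr the median gene was lower by 2.51-fold. The dip of Nfkbia was about that of the median gene, and that of Tnfaip3 was larger.

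The NF-κB subunit genes Relb and Nfkb2 had ratios below that of the median gene. Relb was at 1.65, 8.24, 3.86 and 4.76 RPKM, a ratio of -0.67. Nfkb2, which encodes the p100 precursor and RelB's partner p52, was at 5.01, 15.6, 10.6 and 10.1 RPKM and fell with a ratio of -1.04, while its fitted ratio was -0.40. Traf2, an adaptor of the TNF receptors, fell with a ratio of -1.42, and Rnf31, a subunit of the linear ubiquitin ligase, with a ratio of -1.75. Rnf31 overlaps Irf9 on the same strand. Tank, an adaptor that binds TRAF proteins, and Ripk1, a kinase that docks at the receptor, had the highest ratios of the list, 0.53 and 0.40, both under 2-fold.

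After centring, the other genes that the study named on these same libraries as induced did not pass 2-fold from 6 to 24 hr, apart from Cdkn2a. In deposited units the log2 ratio was 1.45 for Sod2 and 1.12 for Nfkbia, both past 2-fold. It was 0.73 for Gadd45b and 0.30 for Relb, against 0.97 for the median gene. Gadd45b had a centred ratio of -0.24 and Sod2, the mitochondrial superoxide dismutase, of 0.49. Cdkn2a, which encodes the cell-cycle inhibitors p16 and p19ARF, rose with a ratio of 1.20 and was at 8.54, 41.5, 9.13 and 41.0 RPKM. Its levels at 0 and 6 hr were alike, as were those at 1.5 and 24 hr. Cdkn2d, another inhibitor of cyclin-dependent kinases, also had a ratio of 1.20. Of 22 genes of the p53 list past the filter 2 rose (9.09%, against 1.93% of all genes) and 3 fell (13.6%, against 15.1%). The list's median was -0.09, and it was 0.07 after the fit and 0.88 without centring.

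Of 9 adhesion molecules past the filter none rose and 2 fell (22.2%, against 15.1% of all genes). Icam1, the endothelial and fibroblast ligand of leukocyte integrins, was at 0.667, 9.12, 2.63 and 2.54 RPKM and fell with a centred ratio of -1.01, at the edge of the rule. Ncam1 fell with a ratio of -1.52 in the transcript row read here. The highest ratio among its 3 transcript rows was 0.38, so the fall is not shared by all of them. Cd44, the receptor for hyaluronan, had the highest ratio, 0.47. Ass1, argininosuccinate synthase, which recycles citrulline for nitric oxide synthesis, rose: it was at 11.5, 31.7, 15.998 and 66.6 RPKM, with a ratio of 1.09 and a fitted ratio of 1.07. It was the 1 of 7 prostaglandin and nitric oxide enzymes past the filter that rose (14.3%, against 1.93% of all genes), and none fell.

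**Figure D3:**
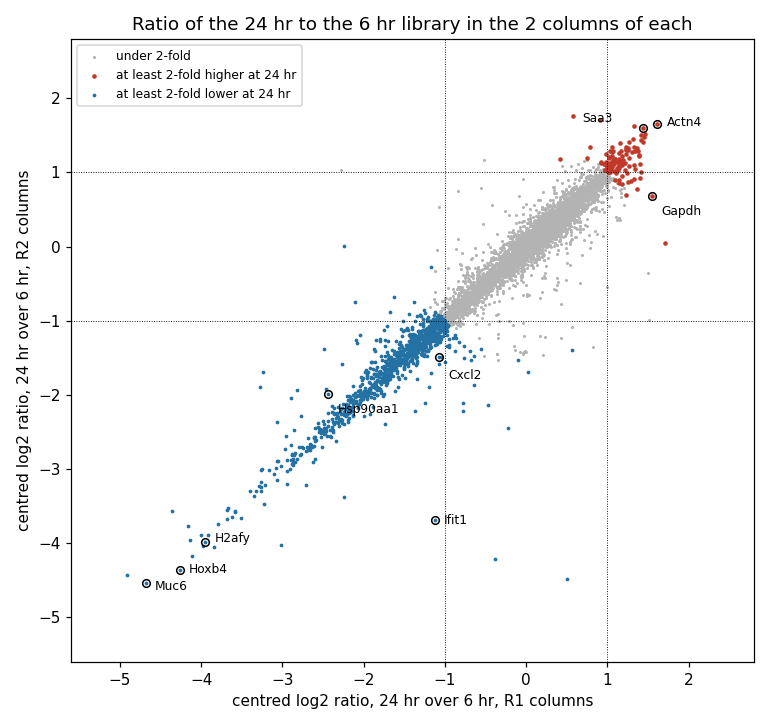
Centred log2 ratio of 24 hr to 6 hr in the R1 columns (x axis) and the R2 columns (y axis) of the 6571 coding genes past the filter, with 2-fold marked by dotted lines. R1 and R2 are 2 columns of the same library and not replicates. Most genes lie near the diagonal, the tail of genes that fell reaches below -4, and Ifit1 lies off the diagonal at -1.12 and -3.69.

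The 2 columns of each library differed little for most genes. The median absolute difference between the centred log2 ratios of the R1 and R2 columns was 0.068, and 95 percent of genes differed by less than 0.334. In both columns at once 95 genes passed 2-fold upwards (1.45%) and 912 downwards (13.9%). The columns come from the same RNA, so this agreement says nothing about the spread between cultures.

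The highest ratio of all belonged to Actn4, an actinin that crosslinks actin filaments. It was at 32.2 RPKM at 0 hr, 81.5 at 1.5 hr, 20.1 at 6 hr and 122 at 24 hr. Its centred log2 ratio was 1.63 (1.61 in the R1 columns and 1.65 in the R2 columns), and its fitted ratio was 1.96. Actn4 lies at chr7:29678267-29747359 on the minus strand of mm9, and a peak of H3K4me3 in untreated MEFs covers its start with 2769 tags and a fold enrichment of 44.9. Capn12, a calpain protease, rose as well with a ratio of 1.46, at 6.26, 6.86, 2.47 and 13.3 RPKM. Capn12 lies on the plus strand and its annotated end overlaps Actn4, and how reads were counted by strand is not stated, so the values of this pair may share reads.

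Actn1, the other non-muscle actinin, rose too. It was at 25.9, 87.7, 21.0 and 99.4 RPKM, with a centred ratio of 1.28 and a fitted ratio of 1.41. Tagln (SM22), an actin-binding protein of myofibroblasts, was at 120, 332, 71.0 and 328 RPKM with a ratio of 1.24. These were the 3 genes that rose among 45 contractile and serum-response genes past the filter (6.67%, against 1.93% of all genes). Of the same list 6 fell (13.3%, against 15.1% of all genes). Pdlim7 fell with a ratio of -1.87, and Myh9, the heavy chain of non-muscle myosin, with a ratio of -1.50 and a fitted ratio of -0.74. The list's median was 0.02, and it was -0.01 after the fit.

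Several of the genes that rose belong to families whose members share sequence, and these families were picked after their values were seen. Of the 127 symbols 21 belong to the gamma-protocadherin cluster, adhesion molecules that are made from alternative first exons joined to shared last exons. All 23 symbols of the cluster past the filter had ratios between 0.92 and 1.099, and reads of the shared exons cannot be told apart from reads of the single genes. Besides these, 106 symbols rose outside the cluster. Of 10 tubulins past the filter 6 rose and none fell, against 1.93% and 15.1% of all genes, and their median ratio was 1.06. Tubb6 was at 11.5, 64.5, 10.9 and 51.9 RPKM with a ratio of 1.28, and Tuba1b was at 64.6, 334, 71.6 and 297 RPKM with a ratio of 1.08. Both were as low at 6 hr as at 0 hr and high at 1.5 and 24 hr. Tubulin genes are alike in sequence and their reads may be shared.

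Other genes among the 12 highest had low or moderate levels. Lgals3 (galectin-3), a lectin made by activated fibroblasts and macrophages, was at 6.995, 18.5, 3.76 and 18.4 RPKM with a ratio of 1.32 and a fitted ratio of 1.27. Ndufa1, a small subunit of respiratory complex I, was at 4.26, 33.5, 5.07 and 25.3 RPKM with a ratio of 1.35, and its fitted ratio was 0.62. Tmem37 had a ratio of 1.49, Mpst, a mercaptopyruvate sulfurtransferase, 1.43, Chrac1, a histone-fold protein, 1.43, Mitd1 1.34 and 1110001J03Rik 1.48. Their values at 6 hr were low, at 0.355, 0.528, 0.624, 0.499 and 0.256 RPKM in the same order. Mitd1 overlaps Lipt1 on the other strand.

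**Figure D4:**
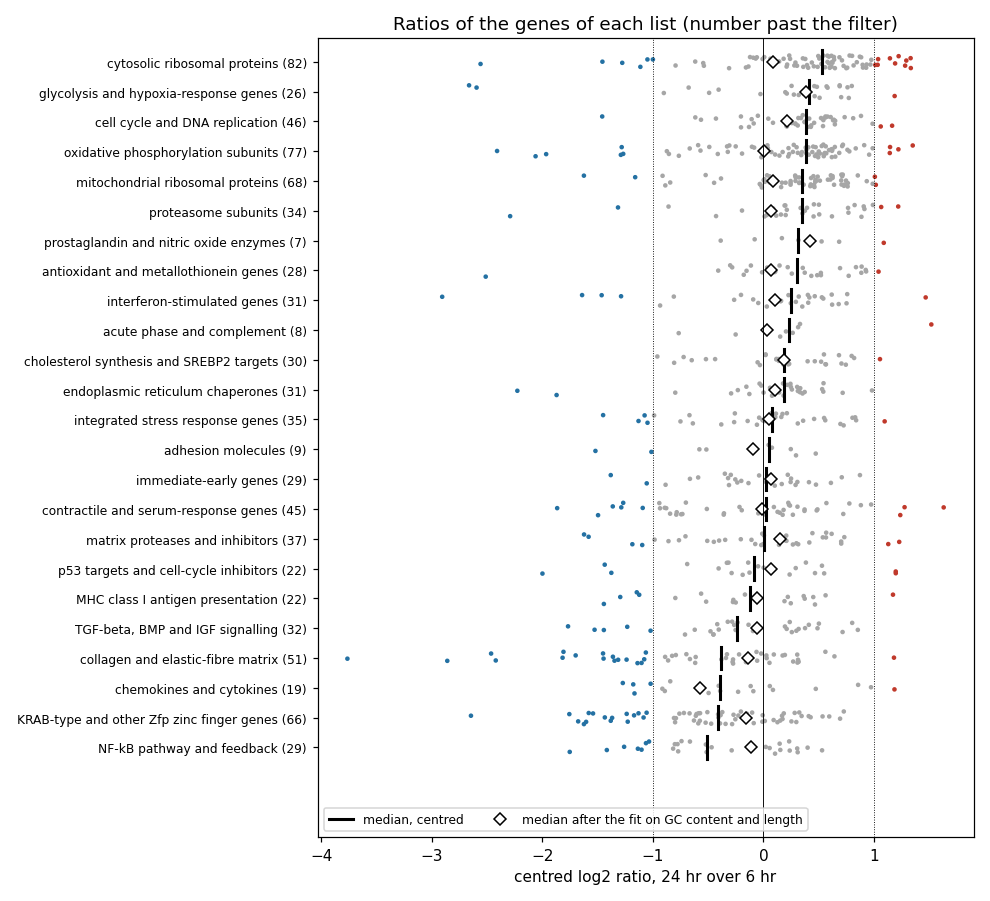
Centred log2 ratio of 24 hr to 6 hr of each gene (points) in 24 lists, with the number past the filter after each name. Black bars are medians, open diamonds are medians after the fit on GC content and length, red and blue points are at least 2-fold higher and lower, and dotted lines mark 2-fold. With centring alone ribosomal proteins had the highest median, 0.53, and it was 0.08 after the fit, while the NF-κB pathway had the lowest, -0.51, and it was -0.12 after the fit.

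Genes of growth and protein production sat above the median gene. With centring on the median gene alone, the cytosolic ribosomal proteins had the highest median of the 24 lists, 0.53 over 82 genes. Of these 10 rose (12.2%, against 1.93% of all genes) and 6 fell (7.32%, against 15.1%). Rpl18 was at 146, 215, 54.7 and 269 RPKM with a ratio of 1.33. Rpsa, which is also known as a laminin receptor, went the other way with a ratio of -2.56. Of the 10 that rose 6 did so in both columns, and after the fit 4 genes of the list passed 2-fold upwards and 5 downwards. Ribosomal protein transcripts are short, with a median length of 855 nt, and the list's median was 0.08 after the fit on GC content and length, below that of prostaglandin and nitric oxide enzymes at 0.42. Ribosomal protein genes have many processed pseudogenes with which reads can be shared.

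The same held for other lists of short transcripts. Of 77 subunits of oxidative phosphorylation 4 rose (5.19%, against 1.93% of all genes) and 6 fell (7.79%, against 15.1%). Their median was 0.39, which was 0.0032 after the fit. Of 68 mitochondrial ribosomal proteins 2 rose and 2 fell (2.94% each), and the median was 0.35, which was 0.08 after the fit. Of 34 proteasome subunits 2 rose and 2 fell (5.88% each), and the median was 0.34, which was 0.07 after the fit. Psmb2 rose with a ratio of 1.22, and Psmd7 fell with a ratio of -2.29.

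Cell cycle genes kept more of their median. Of 46 past the filter 2 rose (4.35%, against 1.93% of all genes) and 1 fell (2.17%, against 15.1%). The median was 0.39, and 0.21 after the fit. Gins2, a subunit of the replicative helicase, rose with a ratio of 1.16 and a fitted ratio of 1.35, at 0.835, 2.51, 0.410 and 1.80 RPKM. Mad2l1, a spindle checkpoint protein, rose with a ratio of 1.06, at 0.290, 2.57, 0.405 and 1.65 RPKM. Pold1, the catalytic subunit of DNA polymerase delta, fell with a ratio of -1.46. Of 26 genes of glycolysis and the hypoxia response Gapdh rose (3.85%, against 1.93% of all genes) and 2 fell (7.69%, against 15.1%). Their median was 0.41, and 0.39 after the fit. Gapdh had a ratio of 1.19, made of 1.55 in the R1 columns and 0.68 in the R2 columns. Hk2, the inducible hexokinase, fell with a ratio of -2.60 and was at 2.004, 2.82, 4.89 and 1.58 RPKM. Eno2, an enolase, fell with a ratio of -2.66.

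In each of the next 3 lists 1 gene rose, a share of 3.57, 3.33 and 2.86% in the order given, against 1.93% of all genes. The shares that fell were 3.57, 0 and 11.4%, against 15.1% of all genes. Of 28 antioxidant and metallothionein genes Gsto1 rose (1.04) and Gpx3, the secreted glutathione peroxidase, fell (-2.51), at 33.7, 8.93, 11.4 and 3.91 RPKM. Of 30 genes of cholesterol synthesis Ebp rose (1.05) and none fell. Of 35 genes of the integrated stress response Ppp1r15a (GADD34), which reverses the block on translation, rose (1.097), and 4 fell. Of 31 genes of the list of endoplasmic reticulum chaperones none rose and 2 fell (6.45%, against 15.1% of all genes). Hsp90aa1, which encodes a cytosolic HSP90, fell with a ratio of -2.23, at 27.8, 30.5, 76.1 and 31.8 RPKM. Of 29 immediate-early genes none rose and 2 fell (6.9%, against 15.1% of all genes). After the fit 4 of that list passed 2-fold upwards and 1 downwards. Zfp36 (tristetraprolin), which speeds the decay of cytokine mRNAs, fell with a ratio of -1.38. Of 32 genes of TGFβ, BMP and IGF signalling none rose and 5 fell (15.6%, against 15.1% of all genes), but after the fit 2 passed 2-fold upwards and none downwards. Ltbp3 and Ltbp4, which tether TGFβ to matrix, had ratios of -1.77 and -1.53 and fitted ratios of -0.67 and -0.32. Of 8 acute phase and complement genes past the filter Saa3 rose (12.5%, against 1.93% of all genes) and none fell. Of 66 zinc finger genes of the Zfp family past the filter none rose and 16 fell (24.2%, against 15.1% of all genes), with a median of -0.41 that was -0.16 after the fit and 0.56 without centring. After the fit 5 of them passed 2-fold upwards and 6 downwards, against 2.53% and 10.1% of all genes.

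Matrix genes were the list with the largest share of genes that fell. Of 51 collagen and elastic-fibre genes past the filter 17 fell (33.3%, against 15.1% of all genes) and 1 rose, and the median was -0.38, which was 0.59 without centring and -0.14 after the fit. After the fit 9 were still at least 2-fold lower. Col7a1, the anchoring fibril collagen, was at 9.34 RPKM at 0 hr, 3.19 at 1.5 hr, 27.5 at 6 hr and 3.96 at 24 hr, a ratio of -3.77 and a fitted ratio of -2.39. Col16a1 had a ratio of -2.86. Col1a1, the main collagen of fibroblasts, was at 514, 278, 236 and 142 RPKM, a ratio of -1.70 and a fitted ratio of -0.85. Eln (elastin) was at 7.68, 1.89, 0.741 and 0.270 RPKM, a ratio of -2.42 and a fitted ratio of -1.46. In RPKM Col1a1 and Eln were thus lower at each later time, whereas Col7a1 was high in the 6 hr library. The median gene was itself 2.51-fold higher at 1.5 than at 6 hr. Relative to it, Col1a1 was higher at 6 than at 1.5 hr and Eln was about level over that step.

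Dcn (decorin), a small proteoglycan that binds collagen, was the matrix gene that rose. It was at 2.68, 3.83, 1.72 and 7.63 RPKM, a ratio of 1.18 and a fitted ratio of 0.78. Of 37 matrix proteases and their inhibitors Mmp3 and Mmp10 rose (5.41%, against 1.93% of all genes) and 4 fell (10.8%, against 15.1%). The median was 0.0041. Adamts10 and Mmp23 had the lowest ratios, -1.62 and -1.58.

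Of the 991 genes that fell, 599 were highest at 6 hr relative to the median level of each library, 385 were highest at 0 hr and 7 at 1.5 hr. Over all 6571 genes the counts were 1038, 2038 and 1989, and 1506 were highest at 24 hr. The rule for a fall excludes 24 hr as the highest time, so these counts describe the genes and do not test them.

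Several of the genes with the lowest ratios had their highest value in the 6 hr library. H2afy, which encodes the histone variant macroH2A, was at 24.5 RPKM at 0 hr, 10.9 at 1.5 hr, 92.8 at 6 hr and 11.6 at 24 hr, a centred ratio of -3.97 and a fitted ratio of -4.00. Hoxb4, a homeobox regulator of position along the body axis, was at 2.37, 0.822, 15.5 and 1.54 RPKM, a ratio of -4.31. Naa15, the auxiliary subunit of an N-terminal acetyltransferase, was at 1.29, 1.03, 8.12 and 0.902 RPKM, a ratio of -4.14. Psd, an exchange factor for the GTPase ARF6, was at 0.929, 0.673, 7.89 and 0.622 RPKM, a ratio of -4.63. Psd overlaps Nfkb2 on the opposite strand and Hoxb4 overlaps the microRNA gene Mir10a, so reads of these loci may be shared. 4930523C07Rik, with a ratio of -4.01, and Dpf1, with -4.05, had the same order of levels at 6 and 24 hr.

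Other genes with very low ratios had high values at both 0 and 6 hr and much lower values at 1.5 and 24 hr. Mll2 (now Kmt2d), a methyltransferase of histone H3 lysine 4 at enhancers, was at 14.1, 1.98, 13.8 and 1.81 RPKM, a ratio of -3.90 and a fitted ratio of -2.49. Muc6, a secreted mucin, was at 2.47, 0.181, 1.58 and 0.127 RPKM, a ratio of -4.61. Rtl1, an imprinted gene derived from a retrotransposon, was at 11.9, 0.978, 8.68 and 1.07 RPKM, a ratio of -3.99, and it overlaps 6 microRNA genes on the opposite strand. Kcp, a secreted modulator of BMP signals, had a ratio of -3.94 and a fitted ratio of -2.77. Samd1 had a ratio of -3.95 and a fitted ratio of -2.32, and its 6 hr value of 23.2 RPKM was above its 0 hr value of 10.7 RPKM.

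Of the 7 leukocyte markers past the filter 1 fell (14.3%, against 15.1% of all genes) and none rose. The marker that fell was Aif1 (Iba1), a calcium-binding protein of macrophages, at 2.51, 1.38, 0.768 and 0.267 RPKM, a ratio of -2.49. Cx3cr1 and Apoe are not on that list and were picked for their low values. Cx3cr1, the fractalkine receptor of macrophages and microglia, was at 1.15, 1.74, 1.92 and 0.502 RPKM, a ratio of -2.90. Apoe, the apolipoprotein that macrophages and fibroblasts secrete, was at 140, 50.5, 39.5 and 9.75 RPKM, a ratio of -2.98. All 3 were lowest at 24 hr. Tyrobp, an adaptor of myeloid receptors, had a ratio of 0.51, Laptm5 of 0.20 and Csf1r, the receptor for CSF1, of -0.51, none past 2-fold. What part changed numbers of such cells played in these ratios was not tested.

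The genes that rose had shorter transcripts than those that fell, and a lower GC content. The median transcript was 1549 nt long for genes that rose, 3165 nt for genes that fell and 2655 nt over all genes read, and the median GC content was 51.7, 57.2 and 52.8%. The median RPKM of the genes that rose was 5.26, 9.41, 1.83 and 7.55 at 0, 1.5, 6 and 24 hr, and that of the genes that fell was 4.83, 2.67, 3.53 and 2.24. In 101 of the 127 that rose the level relative to the library's median was highest at 24 hr, and in 25 at 1.5 hr. Over all 6571 genes the counts were 1506 and 1989. The rule for a rise excludes 6 hr as the highest time and favours 24 hr, so these counts describe the genes and do not test them.

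H3K4me3 in untreated cells was read as a measure that the ratios did not use. Of 11157 peaks, at least 1 lay within 1 kb of an annotated start for 87 of 104 genes that rose (83.7%), 847 of 978 that fell (86.6%) and 5959 of 6470 genes read (92.1%). Among the named genes without one were Saa3, Isg15, Mmp3, Mmp10 and Ccl8, which rose, and Cxcl2, Hoxb4, Muc6 and Rtl1, which fell. All peaks in the file have a fold enrichment of at least 20.0, so weaker marks are not listed, and no peak means only that none of this strength was called.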

How the data were processed

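Poly(A) RNA of MEFs was sequenced by the authors as paired-end directional reads, 1 library per time, and mapped to mouse build mm9 with TopHat and Bowtie, as the submitters' processing notes name them. The deposited table holds RPKM per RefSeq transcript from the authors' own script, in 2 columns per library (R1 and R2), whose content is not given in the sources used here, and how strand entered the counting is not stated. No read counts per gene accompany the RNA values, so the depth behind a value is unknown and no interval is given. The deposited values were on a scale of their own, and all values were divided by 85.6, the median ratio to the RPKM of the study's own list over 5166 values.

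The peak file deposited by the authors gives for each H3K4me3 peak the tag count, a score (-10 times log10 of the p-value), a fold enrichment over input as a ratio, the FDR as a percent and a signal of tags per base, from Bowtie and MACS on mm9. Peaks hold between 42 and 7627 tags, with a median of 1049.

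From these, R1 and R2 were averaged, log2 ratios of 24 to 6 hr were taken with no pseudocount for symbols above an average RPKM of 1, and the median was subtracted, in Python 3.11.15 with pandas 2.3.3 and numpy 2.4.6. GC content and length came from the longest GENCODE M1 coding transcript, for 6446 symbols (98.1%), and starts and positions from the same annotation (98.5%). The named genes were the 12 highest and 12 lowest by the column nearer to 0, both columns being at least 2-fold, the 2 highest and 2 lowest of each of 24 gene lists, and 6 genes that the study names. The steps were tested on simulated data. The 24 gene lists and 9 marker lists, the members and the rules were chosen with earlier results of these data known. RefSeq promoter windows matched 4753 of the 6571 symbols. A total of 13 alternatives were tried, besides a stricter fold and a stricter bar for peaks.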

Additional observations from a re-analysis of the deposited data

How the results depend on the processing

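The direction of every named gene that rose or fell was kept under all 13 alternatives that could read it. For several alternatives this was fixed in advance and is no support. Without centring a log2 of 0.97 is added back, which is less than the 1 needed for a call. The changed filters keep the same centring. Of the named genes, 58 of 85 stayed past 2-fold without centring and 69 of 84 in GC bins. After the fit on GC content and length 61 of 84 did, and with a pseudocount of 1 RPKM 60 of 85. The count of genes that rose, 127, moved to 3151 without centring, 252 with scaling to the summed coding values, 237 centred in GC bins, 78 centred in length bins, 76 with a filter at an average RPKM of 5, 675 with no filter and 1 at 3-fold. The count that fell, 991, moved to 232 without centring, 465 with a pseudocount of 1 RPKM, 361 with the filter at 5, 2701 with no filter, 652 after the fit and 424 at 3-fold. Of the genes called under GC bins 64 that rose and 637 that fell were also called in the report. With peaks of a fold enrichment of at least 40 the share of genes with H3K4me3 was 53.8% for those that rose, 55.6% for those that fell and 64.0% over all. The cause of these shifts was not tested, apart from the filters and the stricter fold, which change the number of genes read or the bar itself. All 24 list medians were above 0 without centring, against 17 above and 7 below 0 with it. No paired analysis was possible because each time has 1 library. The depth behind a value is unknown, and low values rest on few reads.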

Other observations

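Noncoding RefSeq rows (NR_) of the same table were read on the same scale and centred on the coding median. Of 310 noncoding symbols above an average RPKM of 1, 12 were at least 2-fold higher at 24 hr than at 6 hr and 87 at least 2-fold lower. Their median centred log2 ratio was -0.32. Of the 6571 coding genes read, 127 (1.93%) were higher and 991 (15.1%) lower by the same rule. Among 55 microRNA host or hairpin symbols none was higher, 28 were lower and the median was -1.01. In the imprinted cluster that holds Rtl1, Mir410 with a ratio of -0.83 and Mir668 with -0.95 did not pass 2-fold, and the noncoding Rian had a ratio of 0.49. Mir127 and Mir376c of that cluster had much lower ratios: Mir127 was at 3.96, 0.228, 2.99 and 0.250 RPKM at 0, 1.5, 6 and 24 hr, and Mir376c at 3.02, 0.249, 3.21 and 0.206 RPKM, ratios of -4.55 and -4.93. Neat1, the RNA scaffold of paraspeckles, was at 96.9, 20.1, 89.7 and 19.7 RPKM, a ratio of -3.16. As for Mll2 and Muc6, its values at 0 and 6 hr were far above those at 1.5 and 24 hr. These genes were named after their values were seen. Reads of a hairpin and of its host transcript cannot be told apart in these values.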
